A study of Saccharomyces cerevisiae with 16 samples.

Results

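The positions of RNA polymerase II (RNAPII), which makes the messenger RNA of the cell, were mapped in budding yeast (*Saccharomyces cerevisiae*) by ChIP-seq, in which chromatin pulled down with an antibody (8WG16) is sequenced and stretches enriched over input chromatin are called as peaks. The subject here is the stretches of the genome that lay under an RNAPII peak in every wild-type (WT) list and under no peak in any list of the SUMO-conjugation mutant *ubc9-6*. They were chosen by peak position in all 8 peak lists of the series, as intervals of at least 100 bp covered in all 4 WT lists and in none of the 4 *ubc9-6* lists, and are called WT-only regions. There were 270 of them. They lay within 250 of the 1908 stretches of at least 100 bp that were under a peak in any list, so some stretches held more than 1 region. Together they held 145661 bp, or 1.21% of the nuclear genome, and their strain difference is a description that no test can add to.

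The *ubc9-6* strain carries *ubc9-1* as 2 copies in tandem, written *ubc9-1:Tadh1:TRP1:ubc9-1*, at the *UBC9* locus of W303a, and its sumoylation is impaired. The reference strain was W303a itself (*MAT*a, with *ade2-1*, *can1-100*, *his3-11*, *leu2-3_112*, *trp1Δ2* and *ura3-52*), which is the background of the mutant. The mutant cassette also carries *TRP1*, so the 2 strains differ in this marker as well as in *UBC9*. Cells of either strain were moved to 37 °C for 12 min (heat shock) or left at 30 °C (untreated), which gave 4 groups of 2 replicates. The study names 30 °C as permissive and 37 °C as non-permissive for growth of *ubc9-6*. Each genotype was 1 strain, so the strain and anything else that sets these 2 strains apart cannot be told apart. The lists held between 1451 and 1545 peaks, they give no read counts, and the realized depth is unknown, so no value here carries a counting interval. A stretch without a peak is one that did not pass the peak caller's threshold, and RNAPII may still be present there.

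In yeast, RNAPII assembles with the general transcription factors just upstream of a gene, transcribes through the open reading frame (ORF) and is released past its 3′ end, so the ends of a broad peak trace how far along a gene enrichment was called. SUMO is a small protein that Ubc9 attaches to other proteins, many of them transcription factors. A group of genes that recurs among the WT-only regions belongs to sulfur metabolism. Cells take up sulfate through the permeases Sul1 and Sul2, activate it with Met3 and Met14, reduce it with Met16 and the sulfite reductase Met5-Met10, and join the sulfide to a carbon chain made by Met2 on the way to methionine, cysteine and glutathione. The activator Met4 drives these genes through the DNA-binding factors Cbf1, which binds CACGTG, and Met31 or Met32, and it is held in check by the ubiquitin ligase SCF with its F-box subunit Met30.

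The start of 4 sulfur genes whose whole 5′ end was WT-only is shown first, because these were regions that no *ubc9-6* peak reached. Each sequence is the first 60 bases of the ORF on the coding strand (RefSeq, R64, the same sequence lengths as sacCer3), with the start codon in capitals. They lie at chrXIV:117349-117408 (plus strand, *MET2*), chrXV:207117-207176 (minus strand, *MET22*), chrX:683226-683285 (minus strand, *MET5*) and chrVI:213312-213371 (plus strand, *MET10*), and all 60 bases of each were inside a WT-only region.
MET2: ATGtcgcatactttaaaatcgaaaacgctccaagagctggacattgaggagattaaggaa
MET22: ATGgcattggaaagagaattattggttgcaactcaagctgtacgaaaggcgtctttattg
MET5: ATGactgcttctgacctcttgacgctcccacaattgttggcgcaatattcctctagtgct
MET10: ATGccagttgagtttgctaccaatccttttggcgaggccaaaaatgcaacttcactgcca

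Other regions began or ended at the border of a *ubc9-6* peak, and 2 such borders inside ORFs are shown. The WT-only bases are in capitals and the bases still under a *ubc9-6* peak in lower case. In *SUL2* (chrXII:326099-326158, plus strand) the 3′ end of the gene was under the *ubc9-6* peak, and the border was set by *ubc9-6* heat shock replicate 1. In *IMD2* (chrVIII:554614-554673, plus strand) the 5′ end was shared, and the border was set by *ubc9-6* untreated replicate 1.
SUL2: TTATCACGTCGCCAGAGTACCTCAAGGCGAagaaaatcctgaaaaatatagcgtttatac
IMD2: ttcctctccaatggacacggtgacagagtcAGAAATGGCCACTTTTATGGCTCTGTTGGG

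The regions were short. Their median length was 338.5 bp and the longest was 6383 bp; 96 reached 500 bp, 33 reached 1000 bp and 3 reached 3000 bp. The lower limit removed 240 of the 510 intervals of any length. The shortest interval inside the limit was 100 bp within *YME2* (chrXIII:872591-872690), and the longest one outside it was 99 bp within *VHR1* (chrIX:250017-250115). The regions lay on all 16 chromosomes, at between 14.8 regions per Mb on chromosome VI and 26.8 per Mb on chromosome X. The mirrored set, covered in all 4 *ubc9-6* lists and in no WT list, had 367 regions with 240903 bp, and 1000 regions with 1370527 bp were under peaks in all 8 lists.

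To determine whether a region was an edge of a shared peak or a peak of its own, the WT peaks that held it were compared with the peaks of each *ubc9-6* list. With 4 WT and 4 *ubc9-6* lists there were 16 pairs per region. In 115 regions (42.6%) the WT peak overlapped a *ubc9-6* peak in all 16 pairs, and these are called edges. In 61 regions (22.6%) no WT peak that held the region touched a *ubc9-6* peak in any pair, and these are called separate. The other 94 (34.8%) were mixed, with a median of 8 overlapping pairs. Edges held 49.3% of the base pairs, mixed regions 27.4% and separate regions 23.3%. Median lengths were 360 bp for separate, 302 bp for mixed and 381 bp for edge regions. In the mirrored set, 71 of 367 regions (19.3%) were separate and 168 (45.8%) were edges.

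**Figure D1:**
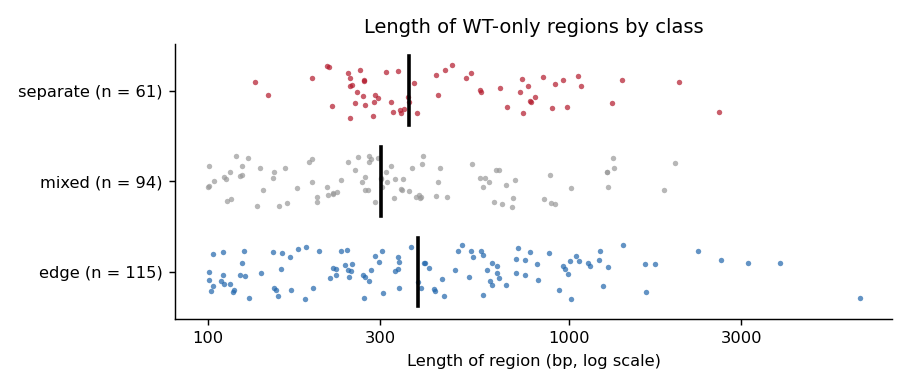
Length of each of the 270 WT-only regions in bp (log axis) by class, with a point per region and a black bar at the median. All 3 classes span from close to 100 bp to over 1000 bp, and the longest region, of 6383 bp, is an edge.

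For separate regions, the nearest *ubc9-6* peak of any list lay a median of 2725 bp away, and at least 1000 bp away from 55 of the 61, with a smallest distance of 243 bp. Of the 115 edges, 100 bordered a *ubc9-6* peak on 1 side and 14 filled a gap between *ubc9-6* peaks on both sides. The remaining 1, of 2268 bp at *GSH1*, lay 605 bp from the nearest *ubc9-6* peak. The gaps included 1239 bp of *GCR1*, the activator of glycolytic genes, 1138 bp of *STP22*, an ESCRT-I subunit gene, and 1045 bp of *CAD1*, which encodes a transcription factor of the AP-1 family. *GCR1* was under peaks over 32.1% and 54.7% of its length in heat-shocked *ubc9-6* and 52.6% and 58.3% in untreated *ubc9-6*, against 100% in all 4 WT lists. Peaks therefore reached into *GCR1* in every *ubc9-6* list and left part of it uncovered.

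The regions gathered at the 5′ ends of genes. Within ORFs, this lean was largely that of WT peaks in the same ORFs. Of the ORF base pairs in WT-only regions, 68.7% lay on the 5′ side of the ORF midpoint. Of all base pairs under peaks in all 4 WT lists in the same ORFs, which include the WT-only ones, 64.1% did. A WT-only region held the start codon of 200 of the 6002 ORFs and the stop codon of 60, and it held both ends of 25. The mirrored regions held 130 start codons and 290 stop codons. With mirrored regions within 250 bp of ribosomal protein genes set aside, 259 remained, and they held 34 start codons and 174 stop codons. Regions under peaks in all 8 lists held 1011 start codons and 1153 stop codons. The excess of start over stop codons among the WT-only regions was present in each class, with 52 against 16 for separate, 62 against 18 for mixed and 86 against 26 for edge regions. These values come from the same peak positions that chose the regions, so none was tested.

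**Figure D2:**
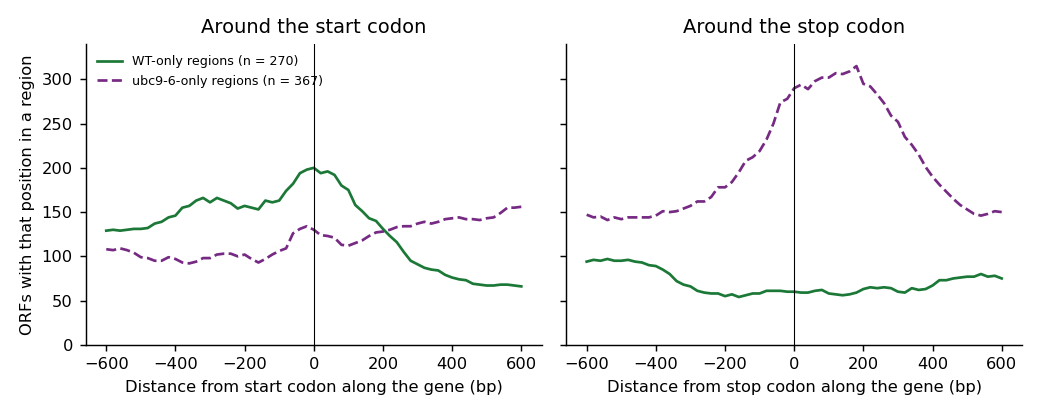
Number of ORFs (of 6002) with a given position in a region, against distance in bp along the gene from the start codon (left) or stop codon (right), for WT-only regions (solid) and *ubc9-6*-only regions (dashed). The WT-only line is highest close to the start codon, at 200 ORFs, and stays near 60 around the stop codon, where the *ubc9-6*-only line reaches its highest values.

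The same held by base pairs. Of the base pairs in WT-only regions, 59.4% lay in ORFs, 23.1% lay outside ORFs within 250 bp upstream of a start codon, and 4.33% lay outside both within 250 bp downstream of a stop codon. The mirrored regions had 64.4% in ORFs, 10.7% upstream and 17.6% downstream, regions under peaks in all 8 lists had 62.9%, 14.6% and 12.3%, and the nuclear genome had 72.8%, 10.7% and 6.54%. By region, 168 of the 270 (62.2%) had at least 50% of their length in ORFs, 49 lay wholly in an ORF and 32 touched none. G and C made up 40.5% of the bases of WT-only regions, 36.7% of the mirrored regions, 38.8% of the regions under peaks in all 8 lists and 38.3% of the genome. Base composition thus moved with the strain contrast, and its part in it was not tested.

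For an edge, the side of the shared peak on which it lay depended on which gene the peak was assigned to. When each peak went to the ORF with the most base pairs under the whole WT stretch, 65 edges lay on the 5′ side of the *ubc9-6* peak and 34 on the 3′ side. The mirrored edges had 46 on the 5′ side of the WT peak and 96 on the 3′ side. When the gene was instead the ORF with the most base pairs in the region itself, the counts were 41 and 50 for the WT-only edges and 62 and 55 for the mirrored edges, so the larger side was reversed in both sets.

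Of the 6002 ORFs, 223 had at least 100 bp in WT-only regions, or 3.72% of all ORFs and 11.7% of the 1906 that had at least 100 bp under peaks in all 4 WT lists. In 65 ORFs at least 50% of the length was WT-only, and 22 were WT-only from end to end. The 22 included *MET2* and *MET22*, *BAT2* (a branched-chain amino acid transaminase), *SKP1* (the SCF subunit that binds F-box proteins), *WSC4* (a stress sensor of the cell surface), *DAL80* (a repressor of nitrogen catabolic genes), *TGS1* (the enzyme that makes the trimethylguanosine cap of small RNAs), *NDJ1* (a meiotic telomere protein), *DID4* (an ESCRT-III subunit), *BNA1* (an enzyme of NAD synthesis) and *COX23* (a mitochondrial copper-site assembly protein). Each of these was at 0 base pairs in every *ubc9-6* list and under peaks over its whole length in every WT list.

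Sulfur genes had the highest share of members among the gene lists that were counted. A list of 40 genes of sulfate uptake, methionine, cysteine and glutathione synthesis and their regulators was drawn up after the regions had been seen, so its count is a description. Of the 28 that had at least 100 bp under peaks in all 4 WT lists, 12 (42.9%) held a WT-only region of at least 100 bp, beside 11.7% of all ORFs with that much WT cover. The 13 regions with at least 100 bp in 1 of these genes held 17009 bp and comprised 5 separate, 4 mixed and 4 edge regions.

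The uptake and activation steps came first along the pathway. *SUL2* (YLR092W, sulfate permease, chrXII:323544-326225) lay in the second-longest region of all, an edge of 3841 bp that also held the whole of its neighbor *GEP5*. Peaks covered 3.62% and 3.5% of the *SUL2* ORF in heat-shocked *ubc9-6* and 2.83% and 2.13% in untreated *ubc9-6*, against 100% in each WT list. *MET3* (YJR010W, ATP sulfurylase, chrX:456239-457774) held a mixed region of 177 bp in the first part of the ORF. It was covered over 12.6% and 0% in heat-shocked *ubc9-6* and 0% in both untreated *ubc9-6* lists, against 100% and 24.1% in heat-shocked WT and 100% in both untreated WT lists. *MET14* (YKL001C, APS kinase, chrXI:438777-439385) was covered over 0% and 22% in heat-shocked *ubc9-6* and 21% and 26.8% in untreated *ubc9-6*, against 100% in each WT list. Cover comes from the peak positions that chose the regions, so a strain difference at these 3 genes was largely built into the choice. For *MET3* the shortest WT cover, in heat shock replicate 2, came closest to *ubc9-6*.

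The reduction steps followed. *MET16* (YPR167C, PAPS reductase, chrXVI:876847-877632) had 59.9% of its ORF in a region of 991 bp that filled a gap between *ubc9-6* peaks. Its ORF was covered over 40.1% and 18.7% in heat-shocked *ubc9-6* and 0% and 26.3% in untreated *ubc9-6*, against 100% in each WT list. *MET5* and *MET10* encode the 2 subunits of sulfite reductase and had no base pair under a *ubc9-6* peak. *MET5* (YJR137C, chrX:678957-683285) was covered over 100% and 33.8% in heat-shocked WT and 100% in both untreated WT lists, and the break of its peak in heat shock replicate 2 split the gene into 2 separate regions of 985 and 914 bp at its ends. *MET10* (YFR030W, chrVI:213312-216419) was covered over 34.7% and 27% in heat-shocked WT and 100% in both untreated WT lists, and its separate region of 963 bp held the 5′ end. In both heat shock lists the *MET10* peak was confined to the first part of the gene.

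*MET2* (YNL277W, homoserine acetyltransferase, chrXIV:117349-118809) lay in the longest separate region, of 2607 bp, 1638 bp from the nearest *ubc9-6* peak. *MET22* (YOL064C, chrXV:206103-207176), which encodes the phosphatase that clears the byproduct of PAPS reduction, lay in a separate region of 1398 bp. Of the glutathione enzymes, *GSH1* (YJL101C, chrX:234320-236356) had no base pair under a *ubc9-6* peak and was covered over 100% and 50.7% in heat-shocked WT and 100% in both untreated WT lists. *GSH2* (YOL049W, chrXV:238619-240094) was covered over 17.4% and 19.6% in heat-shocked *ubc9-6* and 11.2% and 8.74% in untreated *ubc9-6*, against 100% and 37.3% in heat-shocked WT and 100% in both untreated WT lists. *OPT1* (YJL212C, chrX:33850-36249), a transporter of glutathione and small peptides that was not on the list, lay in the second-longest separate region, of 2015 bp, and no *ubc9-6* peak was within 17704 bp of it.

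Regulators of the pathway were also among the members. *MET32* (YDR253C, chrIV:963990-964565) was covered over 0% and 7.12% in heat-shocked *ubc9-6* and 0% in both untreated *ubc9-6* lists, against 100% in each WT list. *MET30* (YIL046W, chrIX:268651-270573) was covered over 2.60% and 18.5% in heat-shocked *ubc9-6* and 0% in both untreated *ubc9-6* lists, against 95.3% and 86.2% in heat-shocked WT and 97.6% and 85.2% in untreated WT. *SKP1*, whose protein joins Met30 to the ligase, lay in a separate region of 1079 bp. Other sulfur genes were outside the regions. *CYS3*, *CYS4*, *MET6*, *MET13*, *MUP1*, *SAH1* and *SAM2* were under peaks over their whole length in all 8 lists, and 12 of the 40 had too little WT cover to hold a region, among them *SUL1*, *STR3* and *MET4*. The other 9 (*HOM2*, *HOM3*, *HOM6*, *MET8*, *MET17*, *MET28*, *MUP3*, *SAM1* and *SAM3*) had WT cover but were reached by peaks of some or all *ubc9-6* lists. *MET17*, which joins sulfide to the carbon chain, was covered over 11.4% and 0% in heat-shocked *ubc9-6* and 98.9% and 100% in untreated *ubc9-6*, against 100% in each WT list.

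**Figure D3:**
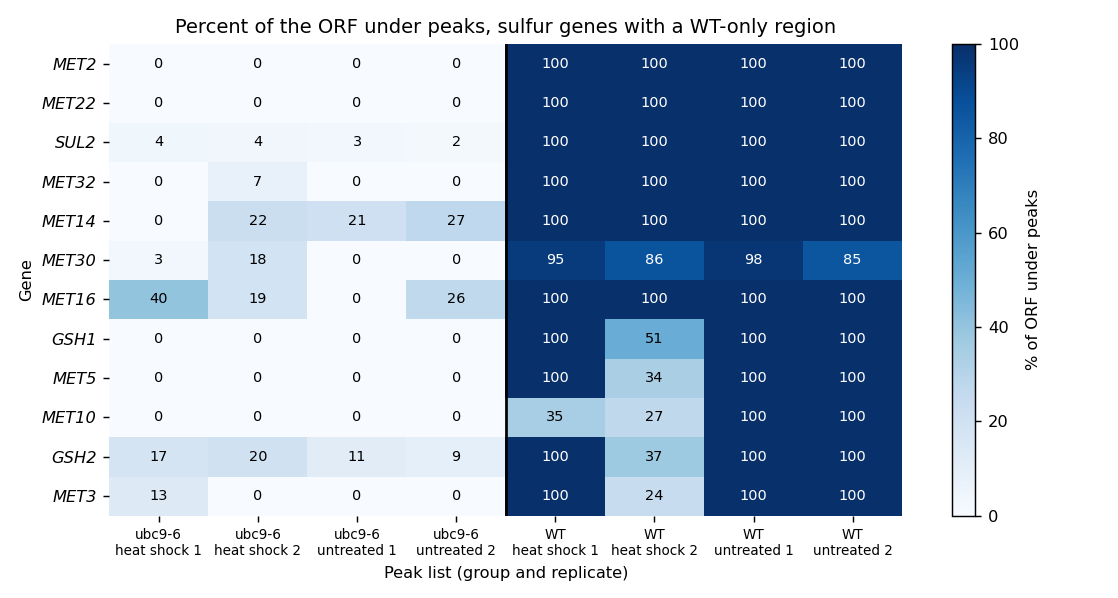
Percent of each ORF under peaks in the 8 lists for the 12 sulfur genes that hold a WT-only region, with *ubc9-6* lists left of the line and WT lists right of it. *MET2* and *MET22* are at 0 in all *ubc9-6* lists and 100 in all WT lists, and *MET5*, *MET10*, *GSH1*, *GSH2* and *MET3* have their lowest WT values in heat shock replicate 2.

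**Figure D4:**
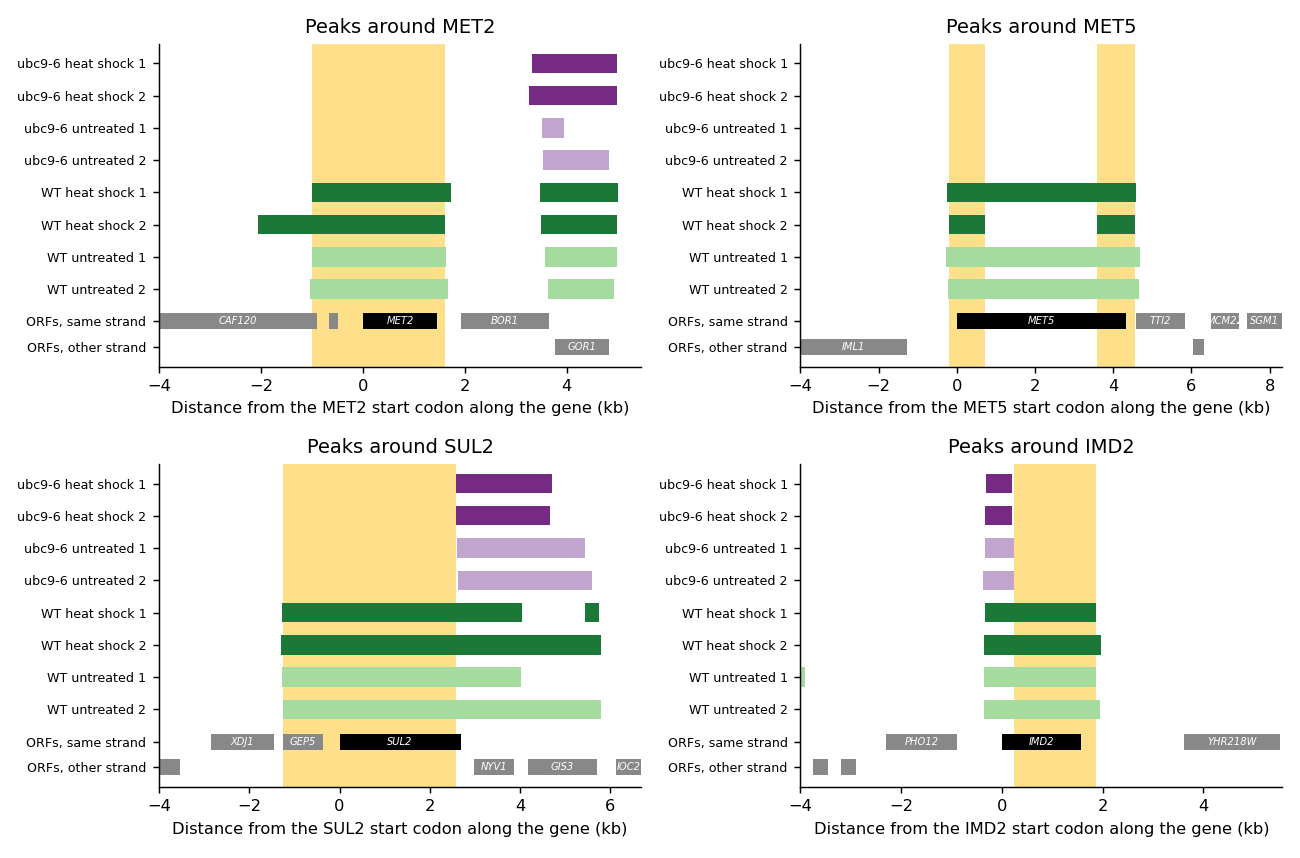
Peaks of the 8 lists (bars) around *MET2*, *MET5*, *SUL2* and *IMD2*, against distance from the start codon along the gene in kb, with ORFs below and WT-only regions shaded. The *MET2* and *MET5* regions are separate from any *ubc9-6* peak, whereas the *SUL2* region ends, and the *IMD2* region begins, at the border of a shared peak.

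Of the amino acid biosynthesis genes taken by symbol, 13 of 99 held a region, or 24.1% of the 54 with enough WT cover, beside 3.72% of all ORFs and 11.7% of those with enough WT cover. Besides 9 of the sulfur genes these were *BAT2*, *SER33*, *LYS1* and *ARG7*. *SER33* (serine synthesis) was covered over 20.4% and 17% in heat-shocked *ubc9-6* and 22% and 14.7% in untreated *ubc9-6*, against 100% in each WT list. *LYS1* (lysine synthesis) and *ARG7* (arginine synthesis) had no base pair under a *ubc9-6* peak, and each had a separate region at its 5′ end, of 379 and 270 bp. *LYS1* was covered over 27.2% and 31.1% in heat-shocked WT, and *ARG7* over 32.1% and 18.3%, against 100% for both genes in both untreated WT lists. Heat-shocked WT peaks were thus confined to part of these genes.

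The remaining lists were small. Of the 8 nucleotide genes with enough WT cover, 2 (25%), *IMD2* and *ADE12*, held a region, beside 11.7% of all ORFs with enough WT cover. *IMD2* (IMP dehydrogenase, the guanine nucleotide step) was covered over 12.6% and 12.7% in heat-shocked *ubc9-6* and 15.8% and 15.3% in untreated *ubc9-6*, against 100% in each WT list. The *ubc9-6* peaks at *IMD2* stopped in the first part of the ORF. *IMD2* lies within 10 kb of a chromosome end and has close copies in the genome, so its reads could be shared among copies. *ADE12* (adenine nucleotide synthesis) held an edge of 269 bp. Of the 3 SUMO pathway genes with enough WT cover, 1, *SIZ1* (a SUMO ligase) held 140 bp of a mixed region of 626 bp that lay mostly upstream of it. No region of at least 100 bp lay in the 9 histone, 18 glycolysis, 15 ergosterol or 10 cell wall genes with enough WT cover. Nor did one lie in the 28 heat shock and chaperone, 5 mating, 2 phosphate, 4 strain marker or 9 ribosomal protein genes with that cover. For the smaller of these lists a count of 0 is close to the 11.7% of the background. *HSF1*, the gene of the heat shock factor, was not on the heat shock and chaperone list and had a separate region of 288 bp at its 5′ end.

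RNA genes were counted at any overlap, and their share under WT peaks was not computed, so the counts have no background beside them. Of 275 tRNA genes, 5 shared 298 bp with WT-only regions, and none of the 76 snoRNA genes did. *SUP19*, a tRNA gene, had 11 bp at the end of a separate region of 1315 bp that held no ORF.

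Repeated sequence, taken to include all bases within 10 kb of a chromosome end, held 9.72% of the base pairs and 11 of the 270 regions. The longest region, of 6383 bp, and another of 2635 bp lay among the 5S rRNA copies on chromosome XII and held *ASP3-2*, *ASP3-3* and *ASP3-4*, which encode asparaginase and are near-identical copies. Reads from such copies cannot be assigned to 1 of them, so these regions are uncertain as to place. Without the 11 regions, 259 remained, of which 41.7% were edges.

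The height of WT peaks was not part of the choice of regions. It is given as the percentile of a peak's fold enrichment among all peaks of its own list. The value belongs to the whole WT peak that holds a region, which for an edge also overlaps *ubc9-6* peaks. Separate regions lay under low peaks, with median percentiles of 33.3 and 29.7 in heat-shocked WT and 25.5 and 28.2 in untreated WT. Their median fold enrichment was between 1.41 and 1.51 in the 4 lists. Edges lay under higher peaks, at medians of 64.3 and 61.9 in heat-shocked WT and 67.0 and 66.9 in untreated WT, and mixed regions were at 37.0 and 37.1 in heat-shocked WT and 34.6 and 40.7 in untreated WT. Regions under peaks in all 8 lists were at 69.1 and 68.8 in heat-shocked WT and 68.8 and 69.8 in untreated WT. A low peak is closer to the calling threshold, and its part in the absence of a *ubc9-6* peak was not tested.

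The separate regions of sulfur genes included higher peaks. *MET2* was at fold enrichments of 2.15 and 2.13 (percentiles 75.7 and 73.8) in heat-shocked WT and 2.72 and 2.53 (percentiles 84.5 and 83.3) in untreated WT. *MET5*, at its 3′ end, was at 1.77 and 1.41 in heat-shocked WT and 3.07 and 2.25 in untreated WT. *SKP1* stood at 1.34 and 1.47 in heat-shocked WT and 1.34 and 1.43 in untreated WT, and *COX23* at 1.36 and 1.25 in heat-shocked WT and 1.30 and 1.31 in untreated WT. The 5 regions with the highest mean percentile over the 4 WT lists were all edges, so their heights are those of shared peaks. The region in *ENT4* (633 bp) was at percentiles of 96.0 and 97.4 in heat-shocked WT and 96.2 and 97.8 in untreated WT. The other 4 of the top 5 were short edges at *ATG33*, *HXT6*, *YLR302C* and *YPL264C*, of 102 to 444 bp, with mean percentiles from 93.7 to 95.7. *HXT6* has a near-identical neighbor, *HXT7*, so its reads could be shared.

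To determine whether WT peaks over these regions responded to heat shock, their percentiles were compared between heat-shocked and untreated WT. In 54 regions (20%) both heat shock values lay above both untreated values, beside 22.6% of the 1297 regions under peaks in all 4 WT lists. In 63 regions (23.3%) both lay below, beside 21.6%. Both shares were close to the background, and the median difference in mean percentile (heat shock minus untreated) was -2.04 for WT-only regions and -0.33 for the 1297. With the deposited fold in place of the percentile, 73 regions had both heat shock values above and 44 had both below, beside 29.8% and 16% of the 1297. The counts rested on all 4 lists. Without untreated replicate 1, 85 regions were higher and 122 lower (beside 37.5% and 42.6% of the 1297), without untreated replicate 2, 88 and 97 (34.9% and 32.9%), without heat shock replicate 1, 77 and 107 (30.1% and 36.1%), and without heat shock replicate 2, 91 and 107 (38.6% and 35.6%). For 1 region, 2 lists against 2 can give no exact permutation p below 0.333 (two-sided).

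Most regions of the sulfur genes lay under lower-ranked peaks after heat shock. Of their 13 regions, 8 had both heat shock percentiles below both untreated ones (beside 21.6% in the background), 1 had both above and 4 overlapped, and their median difference was -12.6 percentile points. The 8 were those of *MET2*, *MET3*, *MET5* (both regions, which shared 1 peak in 3 of the 4 lists), *MET10*, *MET14*, *MET22* and *SUL2*. *MET22* was at percentiles of 45.7 and 21.9 in heat-shocked WT and 73.2 and 60.7 in untreated WT. *MET14* was at 76.5 and 67.4 in heat-shocked WT and 86.1 and 88.8 in untreated WT. *MET30*, the inhibitor of the pathway's activator, was the 1 that went the other way, at 59.9 and 65.3 in heat-shocked WT and 35.1 and 13.1 in untreated WT. As the list was drawn up with the members known, and 2 lists against 2 allow no p below 0.333 for any gene, no test was made.

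The largest differences of all in mean percentile were upward at *SNX4* (a sorting nexin, 48.8 points), upstream of *YGL039W* (41.9) and at *MET30* (38.5), and downward at *REC107* (a meiotic recombination gene, -42.8), at the 3′ end of *MET5* (-41.9) and at *ADH5* (an alcohol dehydrogenase isozyme, -41.7). Single lists decided some of them. *SNX4* was at percentiles of 98.2 and 50 in heat-shocked WT and 36.2 and 14.6 in untreated WT, and *REC107* was at 68.7 and 11.2 in heat-shocked WT and 75 and 90.6 in untreated WT. The percentile belongs to the whole peak, and peaks of different extent held these regions in different lists.

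**Figure D5:**
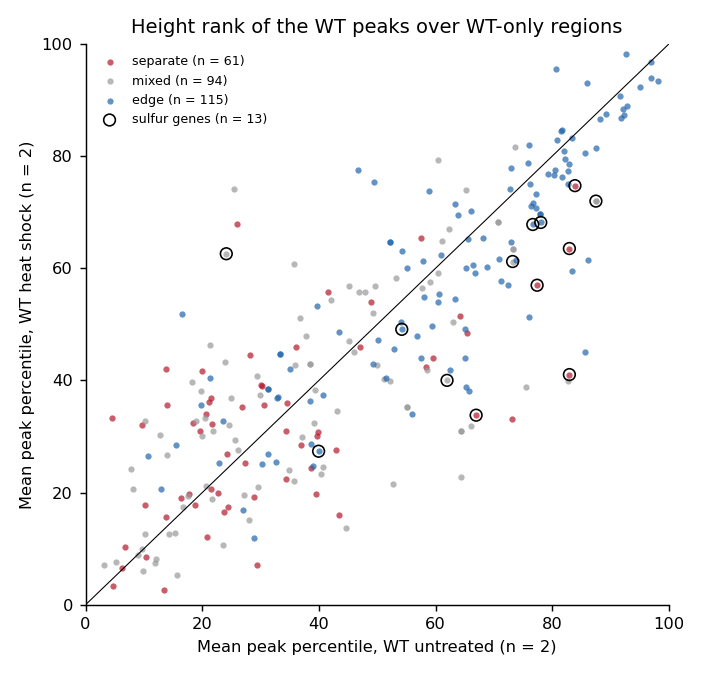
Mean percentile of the WT peaks that hold each of the 270 WT-only regions in heat shock lists (y axis) and in untreated lists (x axis, 2 lists each), by class, with circles around the 13 regions of sulfur genes. Of the circled points, *MET30* lies above the diagonal and the other 12 below it.

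Promoter windows, from 250 bases before to 50 after each start codon, were searched on both strands for 5 motifs. CACGTG was found in 16 of the 223 ORFs with a WT-only region (7.17%) and in 2.92% of all 6002 windows, or 3.73% of those with enough WT cover. Of the 16, 6 were genes of the sulfur list, which was drawn up with the regions known. TGACTC, which the amino acid regulator Gcn4 binds, was found in 13.0% of the 223, beside 7.98% of all windows and 8.39% of those with enough WT cover. GAANNTTC, the heat shock element, was found in 5.83%, beside 11.8% and 10.8%. CCCCT, the stress response element, was found in 25.6%, beside 21.6% of all windows and 30.8% of those with enough WT cover, so the direction depended on the background. TATAAA was found in 44.8%, beside 45.2% and 49.0%. None of the 5 strings contains another, and a match is a string in a window and not a bound site.

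Of the 12 sulfur genes with a region, 8 had TATAAA in the window, 4 had TGACTC, 2 had GAANNTTC and 1 had CCCCT. Sulfur genes without a region were not counted for motifs. CACGTG was in the window of 6 of the 12, and the 30 bases around each are shown on the coding strand with the motif in capitals. They lie at chrVI:213069-213098 (plus strand, *MET10*), chrIX:268462-268491 (plus strand, *MET30*), chrX:236446-236475 (minus strand, *GSH1*), chrXI:439596-439625 (minus strand, *MET14*), chrXV:207294-207323 (minus strand, *MET22*) and chrXVI:877793-877822 (minus strand, *MET16*).
MET10: agcttatagaagCACGTGaccacaattcac
MET30: atgaggttgtagCACGTGatcgggaagcca
GSH1: gttggatctttcCACGTGgtctcgagtcac
MET14: tgccactaatttCACGTGatcaatatattt
MET22: gacgagcaatatCACGTGttgcgattttac
MET16: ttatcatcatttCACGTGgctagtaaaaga
All 30 bases of the *GSH1* and *MET16* sequences lay inside a WT-only region. Those of *MET22* were covered in 1 of the 2 heat shock WT lists and in both untreated ones, those of *MET10* were partly covered in 2 WT lists, and those of *MET30* and *MET14* lay outside every peak. No *ubc9-6* peak covered a base of any of the 6.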

How the data were processed

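Peak lists of 8 RNAPII immunoprecipitates were used; the 8 input samples entered through the authors' peak calling only. Per the study's methods and submitters' processing notes, the authors aligned paired-end reads to sacCer3 with Bowtie2 (2.3.5) and called broad peaks per replicate with MACS2 (2.1.1.20160309), with input as control. Each deposited list gives peak positions, a fold enrichment (a ratio) and the p-value and q-value on a −log10 scale. Fold and q depend on depth, so they were used mainly as ranks or filters within a list. Deposited folds are also printed for named genes and compared across lists in 1 alternative.

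Regions, classes and gene overlaps were computed in Python 3.11.15 (numpy 2.4.6, pandas 2.3.3, scipy 1.17.1) with the RefSeq R64 annotation, whose 16 nuclear chromosomes have the sacCer3 lengths. The finder was tested on simulated lists. Groups came from the labels, which do not say whether replicates were separate cultures. The study's methods describe the untreated replicates of both strains as independent and made from cultures. They do not describe the heat-shocked replicates, so the spread of those may be technical. Members and gene lists were chosen with earlier results of these data known, and the sulfur list after the regions were seen. Named genes were those of the 15 longest separate and 10 longest edge regions, the most covered ORFs, the 5 highest peaks, the 3 largest changes each way on heat shock, and list members; others were named after their values were seen.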

Additional observations from a re-analysis of the deposited data

How the results depend on the processing

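The count of WT-only regions was 96 with a minimum length of 500 bp, 157 when WT peaks had to reach a -log10 q of 5, and 429 when a base was excluded only if at least 2 *ubc9-6* lists covered it. The share of edges was 49.0%, 59.9% and 48.7% under these 3 settings, and 30.6% when all lists were held to a -log10 q of 5. The share of regions in ORFs was 88.1% for any overlap and 24.1% for at least 0.9 of the length. Leaving out 1 list gave 279 to 353 regions, 42.6% to 48.2% edges and 59.1% to 65.4% in ORFs. Of the heat shock counts, leaving out 1 WT list gave 77 to 91 regions with higher and 97 to 122 with lower percentiles, while the shares of the background ran between 30.1% and 38.6% higher and between 32.9% and 42.6% lower. Compared within same-numbered pairs (replicate block), 77 regions were higher in both pairs and 110 lower, beside 33.4% and 36.2% of the 1297 background regions. Deviations of same-numbered WT lists correlated (r = 0.43 across 1297 regions, which are not independent), but with 2 pairs the numbers were not taken to pair the samples. Under the 16 other settings run for the regions, between 9 and 13 sulfur genes held a region, and start codons outnumbered stop codons by 2.35 to 3.87 times. Peak lists carry no depth, so how far below the threshold an uncalled stretch lay is unknown.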
